A study of Homo sapiens with 21 samples.

Results

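The genes described here are the machinery that copies DNA and supplies its building blocks, 52 gene symbols out of 19683 in the count table. They were chosen by name, with earlier results of these data known. They fall into 9 roles: 11 genes for licensing of replication origins, 8 for activation of the replicative helicase, 7 for polymerases and primase, 5 for the sliding clamp and its loader, and 4 for strand maturation and single-strand binding. The others are 5 nucleotide supply enzymes, 3 genes for chromatin assembly and upkeep of DNA methylation, 5 for fork protection and replication checks, and 4 transcription and kinase regulators of S phase. The data are TempO-Seq counts, in which pairs of short detector oligos are ligated on each RNA and sequenced, from HepG2/C3A, a clone of the human hepatoma-derived liver line HepG2. All cells were wild type and untreated. Spheroids were formed in ultra-low attachment plates, kept in a rotating bioreactor and collected at Days 3, 7, 10, 14, 21 and 28, with 3 libraries per day. The control was the same line grown as a flat monolayer (2D), also with 3 libraries. How long or how densely the monolayer had grown before collection is not stated in the labels, and a single clone of a tumour line is the model throughout. The labels call the replicates biological, but not whether each was a culture of its own, and the p-values reflect only how far these libraries differed.

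A cell copies its genome once per division. In G1 phase the origin recognition complex, CDC6 and CDT1 load rings of MCM2 to MCM7 onto DNA, and the E2F transcription factors switch on many of the genes for this as the cell commits to S phase. The kinase of CDC7 and DBF4, with CDC45, the GINS complex and MCM10, turns the rings into working helicases. Primase and the polymerases then build new strands, PCNA holds the polymerases on DNA, and FEN1 and LIG1 finish the lagging strand. Ribonucleotide reductase, thymidylate synthase, thymidine kinase and dUTPase keep the deoxynucleotide supply matched to demand. Adult hepatocytes rarely divide, whereas HepG2 cells proliferate in ordinary culture.

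Library totals ran between 18760232 and 43443262 counts, the median of the 21 being 31997292. Levels are given as CPM, counts scaled to a common library size with TMM factors. Since each gene is read through its own probe, a level was compared between libraries and not between genes. Hepatocyte markers were present in every library, with ALB at 1790 to 20500 CPM. The list summed to 55000 to 56700 CPM at Day 3 and 45900 to 57800 at Day 28, against 14000 to 15200 in 2D. All 10 were called higher than 2D at each of the 6 spheroid days, with a median log2 fold change of 2.22 at Day 3 and 2.16 at Day 28. Of all genes, 40.1% were called higher at Day 3 and 38.5% at Day 28. Of 7 fibroblast markers, COL1A1, COL1A2 and DCN had no counts in any library, and the list summed to 0.602 to 1.07 CPM at Day 3, 2.03 to 3.35 at Day 10 and 0.388 to 0.526 at Day 28, against 0.0424 to 0.229 in 2D. PDGFRB, the 1 gene of that list that was tested, was called higher than 2D at all 6 spheroid days, with log2 fold changes of 3.16 at Day 3 and 2.39 at Day 28 (edgeR, adjusted p = 9.62e-06 and 0.00104). Of 5 endothelial markers KDR had no counts, and the list summed to 0.173 to 0.532 CPM at Day 3 and 0.543 to 0.907 at Day 28, against 0.0424 to 0.0651 in 2D. VWF was called higher than 2D at Days 7, 14, 21 and 28, by 4.51 ± 1.11 (edgeR, adjusted p = 0.000521) at Day 28. Of 5 leukocyte markers PTPRC had no counts and CD3E at most 2 in a library, while the list summed to 220 to 225 CPM at Day 3 and 81.9 to 92.3 at Day 28, against 64.7 to 69.3 in 2D. Its CPM came mostly from CD68 (24.2 to 64.6) and LYZ (19.4 to 201), while CD14 had 0.102 to 4.79. At Day 3 CD14 was higher than 2D by 4.05 ± 0.36 (edgeR, adjusted p = 5.28e-12) and LYZ by 3.07 ± 0.086 (edgeR, adjusted p = 2.57e-25). CD68 was not called at Day 3 (0.15 ± 0.099, edgeR, adjusted p = 0.173). It was called higher at Days 7 and 10 (0.37 and 0.30) and lower at Days 14, 21 and 28 (-0.66, -0.81 and -0.81). The part of these markers in the results was not tested. A gene was called higher or lower at a Benjamini-Hochberg adjusted p under 0.05 in edgeR's quasi-likelihood test, adjusted over the 12345 genes that passed a filter on low counts. Of the 52 symbols, 51 passed that filter. The other is E2F1, which had no counts in 2D and too few elsewhere. In bulk RNA, fewer cells of a kind and less RNA per cell cannot be told apart, which holds for every result below.

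Libraries of Days 14 and 21 spread most, and they did so across the members together. Over the 32 members with a mean of at least 10 CPM, the median coefficient of variation was 3.23% at Day 3, 7.19% at Day 7 and 6.63% at Day 10. It was 23.7% at Day 14, 19.2% at Day 21 and 11.5% at Day 28, against 11.1% in 2D. Day 14 replicate 3 had a median deviation of -0.30 from its group mean on the log2 scale, with 6 of 51 members above that mean. Day 21 replicate 1 had a median deviation of 0.30, with 45 of 51 above. A list of mitosis genes deviated in the same direction in these libraries (-0.40 and 0.31), while the median over all genes stayed between -0.01 and 0.016 in each of the 21 libraries. The Day 28 libraries had median deviations of 0, 0.011 and -0.052, with 26, 28 and 22 of 51 members above the mean. Smaller joint deviations were also seen in earlier groups, such as 2D replicate 1 (0.109, 35 above) and Day 7 replicate 3 (-0.089, 10 above). Where a call stated below for a single member was lost without 1 library, that is given beside it.

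The replication genes were high in young spheroids, low in the monolayer and in between in old spheroids. At Day 3 the 51 tested members were all called higher than in 2D, against 40.1% of all genes tested, and 0 lower, against 37.8%. Their median log2 fold change was 3.13, while the median of all genes was 0.06. The members were also called higher in 51 of 51 cases at Day 7 (40.4% of all genes, with 38.4% lower) and at Day 10 (40% of all genes, with 37.9% lower), with medians of 2.95 and 3.56. At Day 14 44 were called higher (38.7% of all genes) and 2 lower (35.7% of all genes), with a median of 1.51. At Day 21 45 were called higher (39.3% of all genes) and 0 lower (35.1% of all genes), with a median of 1.76. At Day 28 42 were called higher (38.5% of all genes) and 2 lower (34.8% of all genes), with a median of 1.23. With library size in place of TMM scaling the median of all genes moved to 0.27 at Day 3 and to 0.30 at Day 28, and that of the members to 3.35 and 1.45. The groups' libraries did not overlap for 51 of 51 members at Day 3 (41.4% of all genes were higher without overlap) and for 42 at Day 28 (38.8% of all genes). In all, 40 members were called higher than 2D at each of the 6 spheroid days. The share of all genes called so at every day was not computed, and it cannot exceed the 38.5% of Day 28. These daily shares also stand beside the counts of each role class below.

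Between spheroid days the members moved in steps. From Day 3 to Day 7 a dip was called for 14 members (8.76% of all genes were lower) and a rise for 1 (10.6% of all genes were higher), with a median of -0.35. From Day 7 to Day 10 a rise was called for 36 members (13.9% of all genes) and a fall for 1 (13.5% of all genes), with a median of 0.57. The 14 that dipped at Day 7 all rose again at Day 10. The same Day 7 libraries enter both steps with opposite sign, so a low value there favours both calls. The share of all genes called in both was not computed, and it cannot exceed the 8.76% lower at Day 7. From Day 10 to Day 14 a fall was called for all 51 tested members, against 24.3% of all genes, with a median of -1.97. Of these members 49 fell at least 2-fold, a threshold at which the share of all genes was not computed. From Day 14 to Day 21 a rise was called for 8 (13.9% of all genes) and a fall for 0 (12.7% of all genes), and from Day 21 to Day 28 a fall for 26 (14% of all genes) and a rise for 0 (10% of all genes). Day 28 set directly against Day 3 gave 51 of 51 lower (30.2% of all genes), with a median of -1.98. These comparisons share libraries, so their counts are not independent of each other. With 2D set aside, the F test for a difference between any of the 6 spheroid days called 51 of 51 members and 76.2% of all genes tested. The count for Day 7 against Day 3 depends on how the spread is estimated: fitted on those 2 groups alone, 34 members were called lower. Without Day 3 replicate 3 it was 9. The rise from Day 14 to Day 21 was called for 4 members without Day 14 replicate 3 and for 3 without Day 21 replicate 1.

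**Figure D1:**
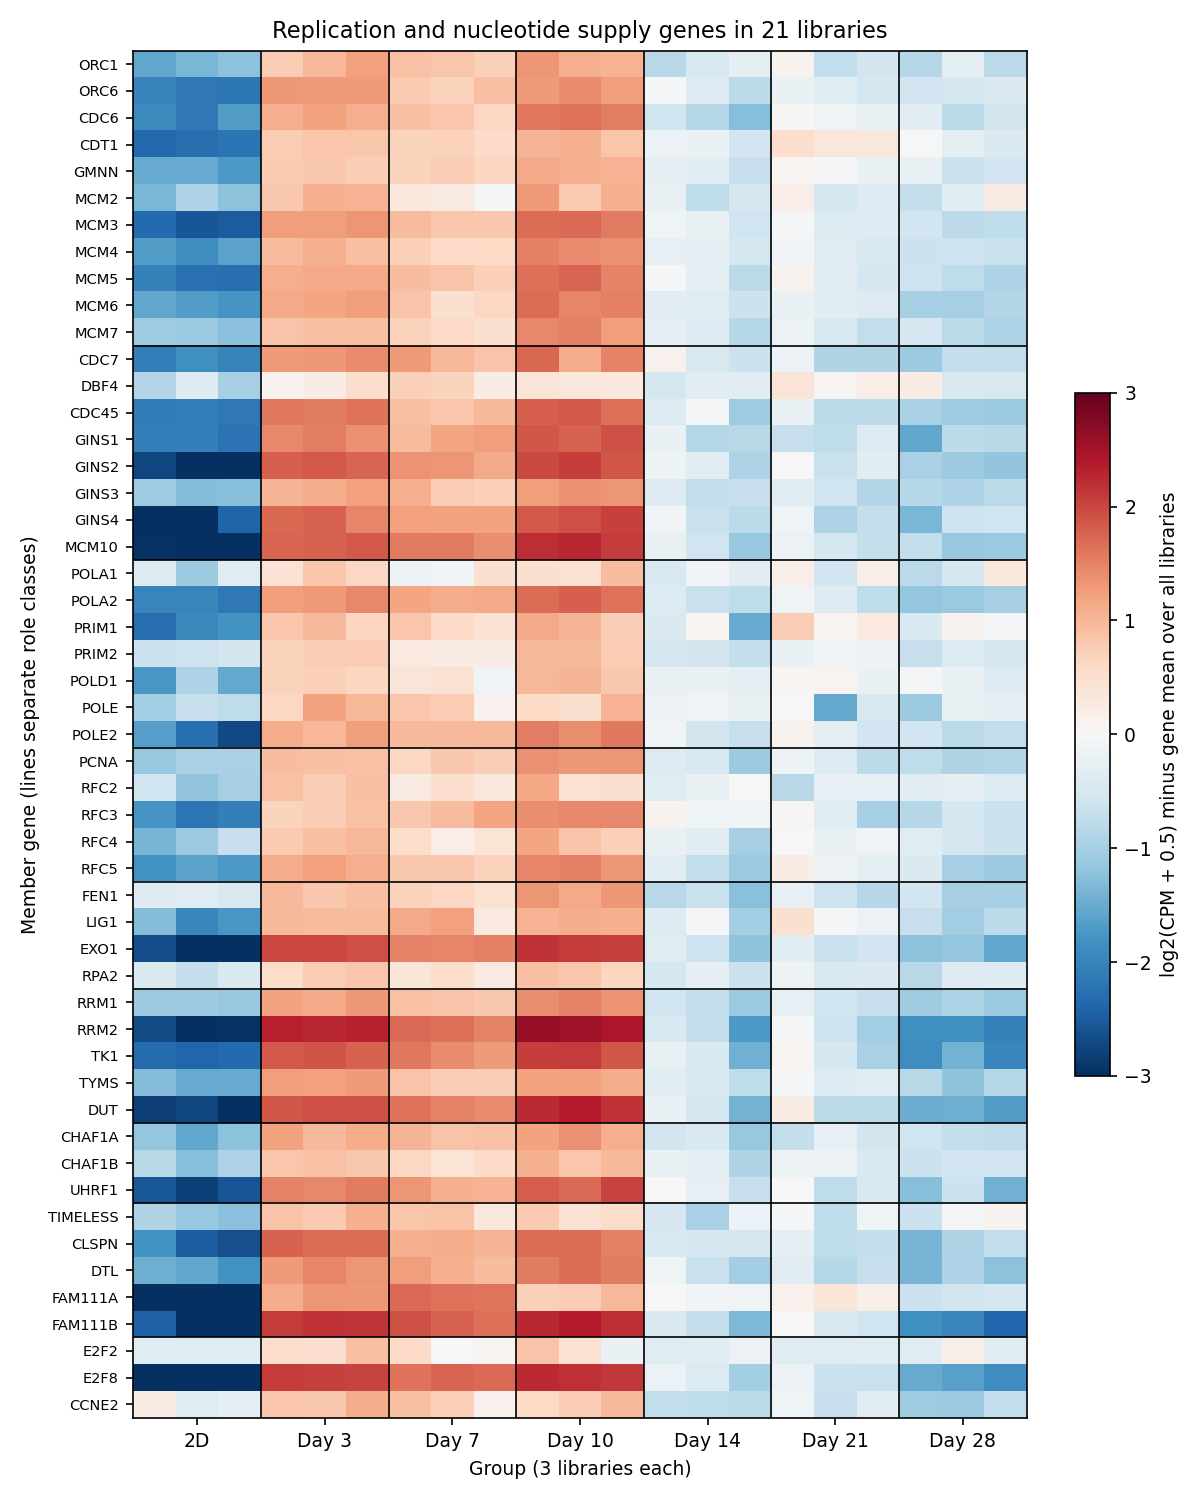
Level of each of the 51 tested members in every library, as log2(CPM + 0.5) minus the gene's mean over the 21 libraries, with genes in rows by role class and libraries in columns by group; the colour scale is held at -3 and 3. The 9 libraries of Days 3, 7 and 10 are mostly red, the 3 of 2D the darkest blue in most rows, and the 9 of Days 14, 21 and 28 mostly pale blue.

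The highest group mean fell at Day 10 for 42 members, at Day 3 for 7 and at Day 7 for 2, DBF4 and FAM111A. The lowest fell in 2D for 49 members, with FEN1 lowest at Day 14 and CCNE2 lowest at Day 28. Among spheroid days alone, the lowest mean was at Day 28 for 37 members, at Day 14 for 11 and at Day 21 for 3. The drop between Day 28 and Day 3 differed between roles. Median log2 fold changes of Day 28 against Day 3 were -3.54 for nucleotide supply, -2.66 for helicase activation and -2.60 for fork protection and checks. The 3 tested S-phase regulators had -2.415, which is the value of E2F2, a gene with few counts. The other classes had -1.99 for strand maturation, -1.90 for chromatin assembly, -1.72 for origin licensing, -1.54 for polymerases and primase, and -1.49 for the clamp and its loader. With 3 to 11 genes per class these medians are descriptions and were not tested against each other.

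**Figure D2:**
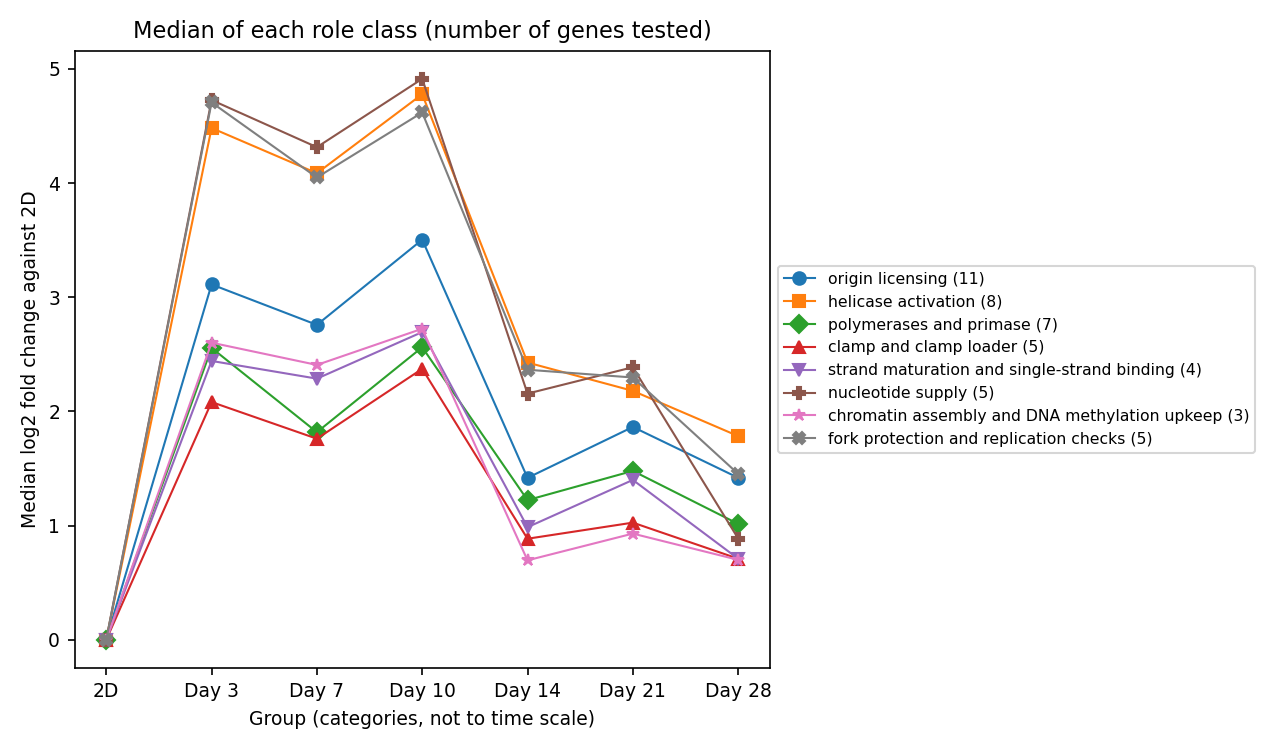
Median log2 fold change against 2D (vertical axis) of each role class at the 6 spheroid days (horizontal axis, categories), with 2D at 0 by definition and the number of genes tested in each class given in the key; the class of S-phase regulators is left out because E2F2 has no counts in 2D. The medians for nucleotide supply, helicase activation and fork protection lie between 4.48 and 4.73 at Day 3, above the other classes, and the nucleotide supply median is down to 0.89 at Day 28.

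What the promoters share was read from RefSeq, 250 bases before to 50 after each start (GRCh38.p14), where 45 of the 52 members had an entry. E2F factors favour sites that read TTTCCCGC, TTTGGCGC, TTTCGCGC or TTTGCCGC on one strand. On either strand, 23 of 45 members (51.1%) had at least 1 of these octamers, against 544 of the 9932 genes tested that had an entry (5.48%). The members held 30 octamers in all, and 20 members had one within 60 bases of the start. The hexamer TTTGAA, the core of the cell cycle genes homology region (CHR) through which the DREAM and MuvB complexes act on genes of mitosis, was in 2 of 45 members (4.44%) and in 9.97% of all genes. Of replication genes outside the member list, 4 of 22 with an entry held an octamer (18.2%), and of further nucleotide supply genes 1 of 12 (8.33%). A list of 24 mitosis genes, 20 of them with an entry, had the hexamer in 15 (75%) and an E2F octamer in 3 (15%). The CCAAT box of the factor NF-Y was in 51.1% of members, 68.2% of the other replication genes, 80.0% of the mitosis genes and 37.1% of all genes. A match is a string of letters and not a shown binding site. MCM6, PCNA and E2F1 are printed in full up to the start, because MCM6 holds a pair of sites at 2 places, PCNA a single site and E2F1 a pair close to its own start. Capitals mark the octamers, which in MCM6 overlap on opposite strands to form 2 runs of 12 bases.
MCM6, chr2:135876444-135876693, minus strand: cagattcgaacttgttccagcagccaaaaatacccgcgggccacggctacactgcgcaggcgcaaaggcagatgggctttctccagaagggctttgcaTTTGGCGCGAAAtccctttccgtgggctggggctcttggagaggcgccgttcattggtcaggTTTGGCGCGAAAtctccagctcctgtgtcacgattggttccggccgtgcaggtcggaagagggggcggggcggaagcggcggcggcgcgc
PCNA, chr20:5126623-5126872, minus strand: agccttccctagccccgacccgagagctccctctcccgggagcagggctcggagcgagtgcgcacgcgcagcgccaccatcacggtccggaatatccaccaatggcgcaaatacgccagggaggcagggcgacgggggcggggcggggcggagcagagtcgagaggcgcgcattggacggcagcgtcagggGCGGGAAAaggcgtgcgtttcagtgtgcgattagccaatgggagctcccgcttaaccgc
E2F1, chr20:33686386-33686635, minus strand: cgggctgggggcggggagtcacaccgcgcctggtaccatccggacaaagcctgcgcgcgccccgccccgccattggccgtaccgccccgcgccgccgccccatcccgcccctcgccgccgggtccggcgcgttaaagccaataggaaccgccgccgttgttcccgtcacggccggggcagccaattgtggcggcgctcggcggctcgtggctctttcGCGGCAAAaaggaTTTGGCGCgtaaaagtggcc

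Short stretches of 28 bases from the same table, with 10 bases either side of the octamer and written on the strand on which it reads TTT first, show the searched octamer in its setting in genes of different role. The octamer of CDC6 lies just after the start, that of MCM3 across it and the others before it.
CDC6, chr17:40287876-40287903, plus strand: gccattcggaTTTGGCGCgagcgcggct
CDT1, chr16:88803744-88803771, minus strand: tcccgccaaaTTTCCCGCgggcgccctg
MCM3, chr6:52284729-52284756, minus strand: gttcggaagtTTTCGCGCcggggtggag
GINS2, chr16:85688968-85688995, plus strand: cggccgccgtTTTCCCGCcacggcgaga
POLA2, chr11:65261899-65261926, plus strand: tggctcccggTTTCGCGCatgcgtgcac
RFC3, chr13:33818084-33818111, minus strand: agagacaagtTTTCCCGCgagctccaaa
LIG1, chr19:48170441-48170468, minus strand: cttcacccctTTTCCCGCcctcctccca
TYMS, chr18:657604-657631, minus strand: ccgcgcgcctTTTCCCGCggccgtcccg
UHRF1, chr19:4909477-4909504, minus strand: ctctgattttTTTCCCGCgaaaactcgg

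Members with an octamer were set beside members whose window had none. The median log2 fold change was 3.12 with and 2.96 without at Day 3 against 2D, and -2.01 with and -1.85 without at Day 14 against Day 10 (22 tested members each). At Day 28 against Day 3 it was -2.11 with and -1.89 without. The order was not the same throughout, since Day 21 gave 1.736 with and 1.738 without against 2D, and 0.148 with and 0.304 without against Day 14. These medians are descriptions, with no test.

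**Figure D3:**
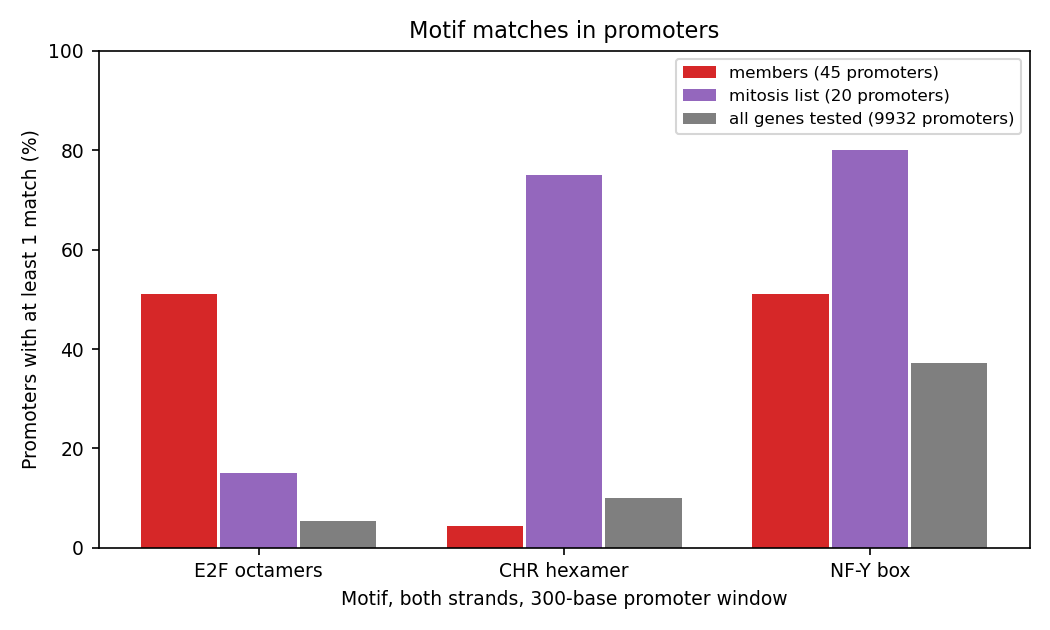
Share of promoters (vertical axis, %) with at least 1 match on either strand to an E2F octamer, the CHR hexamer or the CCAAT (NF-Y) box, in a window of 300 bases, for the members (45 promoters), the mitosis list (20) and all genes tested (9932). The E2F bar is tallest for the members at 51.1% and the CHR bar for the mitosis list at 75%.

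Origin licensing genes were all higher in spheroids, in 11 of 11 cases at each of the 6 days against 2D. Per day, 38.5% to 40.4% of all genes were called higher. CDC6 is the ATPase that, with the origin recognition complex, loads the MCM rings. It had 74, 80.3 and 74 CPM at Day 3, against 8.81, 7.35 and 10.5 in 2D. CDC6 then had 64.5, 61.6 and 53.3 at Day 7, 104, 107 and 101 at Day 10 and 22.6, 18.8 and 14 at Day 14. It had 35.5, 31.5 and 29.6 at Day 21 and 27.3, 19.4 and 23.3 at Day 28. Every spheroid library lay above every 2D library, and Day 14 had the lowest spheroid mean while overlapping Day 28. CDC6 was higher by 3.11 ± 0.15 (edgeR, adjusted p = 5.86e-15) at Day 3 on the log2 scale, the scale of all fold changes below, and fell by 2.49 ± 0.14 at Day 14 against Day 10 (edgeR, adjusted p = 1.14e-12).

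CDT1, the second MCM loader, is held in check by geminin, the product of GMNN, which blocks reloading once S phase has begun. CDT1 had 134, 140 and 141 CPM at Day 3, against 14.9, 16.1 and 16.9 in 2D. CDT1 levels were 125, 128 and 118 at Day 7 and 161, 165 and 141 at Day 10, then 69.8, 68.3 and 52.7 at Day 14, 112, 99.3 and 99.3 at Day 21 and 79.7, 65.8 and 58 at Day 28. The lowest Day 21 library was above the highest of Days 14 and 28. GMNN had 229, 231 and 222 CPM at Day 3, against 45.8, 46.1 and 39.8 in 2D. GMNN levels were 210, 220 and 207 at Day 7 and 291, 283 and 270 at Day 10, then 110, 104 and 81.3 at Day 14, 137, 126 and 114 at Day 21 and 114, 83.6 and 88.6 at Day 28. Both genes kept every spheroid library above 2D. At Day 28 CDT1 was higher than 2D by 2.08 ± 0.11 (edgeR, adjusted p = 4.26e-16) and GMNN by 1.12 ± 0.11 (edgeR, adjusted p = 1.23e-09). The ratio of CDT1 to GMNN within a library, whose absolute size depends on the probes, averaged 0.609 ± 0.0247 at Day 3 and 0.552 ± 0.031 at Day 10, then 0.828 ± 0.0434 at Day 21 and 0.713 ± 0.0678 at Day 28, against 0.366 ± 0.0522 in 2D (SD, n = 3 each).

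ORC1, the largest subunit of the origin recognition complex, had the largest Day 3 change of this class and few counts. ORC1 had 2.01, 2.46 and 2.98 CPM at Day 3, against 0, 0.0763 and 0.13 in 2D, where the counts were 0, 3 and 4. ORC1 levels were 2.23, 2.13 and 1.93 at Day 7 and 3.19, 2.61 and 2.55 at Day 10, then 0.329, 0.559 and 0.701 at Day 14, 1.09, 0.39 and 0.511 at Day 21 and 0.32, 0.731 and 0.349 at Day 28. The Day 3 to Day 10 libraries were all above the later ones. ORC1 was higher at Day 3 by 4.99 ± 0.53 (edgeR, adjusted p = 3.34e-10), a value that rests on 0 to 4 counts in the 2D libraries. ORC6, the small subunit, was higher by 3.79 ± 0.17 at Day 3 and by 1.90 ± 0.18 at Day 28.

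The 6 ring subunits were all called higher at Day 3 and lower at Day 14 against Day 10. MCM2 had 3.7, 4.53 and 4.46 CPM at Day 3, against 0.424, 0.763 and 0.521 in 2D. MCM2 levels were 2.48, 2.37 and 1.81 at Day 7 and 5.3, 3.65 and 4.55 at Day 10, then 1.56, 0.909 and 1.2 at Day 14, 2.24, 1.17 and 1.34 at Day 21 and 0.96, 1.37 and 2.33 at Day 28. MCM2 was scattered late, since 1 library each of Days 21 and 28 was above 2 CPM and the other libraries of those days below 1.5. MCM6 had 17.9, 18.6 and 19.5 CPM at Day 3, against 2.33, 2.11 and 1.95 in 2D. MCM6 levels were 14.6, 11.2 and 12.4 at Day 7 and 26.1, 22.8 and 23.5 at Day 10, then 6.2, 5.98 and 4.84 at Day 14, 6.74, 6.24 and 5.94 at Day 21 and 3.68, 3.68 and 4.04 at Day 28. No Day 28 library of MCM6 reached the lowest of Day 14. MCM7 had the smallest Day 3 change of the class. MCM7 had 226, 232 and 235 CPM at Day 3, against 58.8, 57.6 and 52.1 in 2D. MCM7 levels were 200, 186 and 174 at Day 7 and 341, 355 and 298 at Day 10, then 101, 95.6 and 68.5 at Day 14, 111, 88.7 and 75.1 at Day 21 and 87.8, 71.3 and 64.6 at Day 28. Its Day 28 libraries came close to 2D without overlapping it. MCM7 was higher at Day 3 by 2.04 ± 0.15 (edgeR, adjusted p = 1.77e-09) and at Day 28 by 0.41 ± 0.15 (edgeR, adjusted p = 0.025). The Day 28 call of MCM7 was lost without 2D replicate 3 (0.38, edgeR, adjusted p = 0.0628) or without Day 28 replicate 1 (0.26, edgeR, adjusted p = 0.15). At Day 14 against Day 10 all 6 subunits fell, with log2 fold changes from -2.09 (MCM6) to -1.79 (MCM4), and MCM3, with a mean of 1160 ± 32.4 CPM at Day 3 and 86.1 ± 7.52 in 2D, fell by 1.95 ± 0.11.

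**Figure D4:**
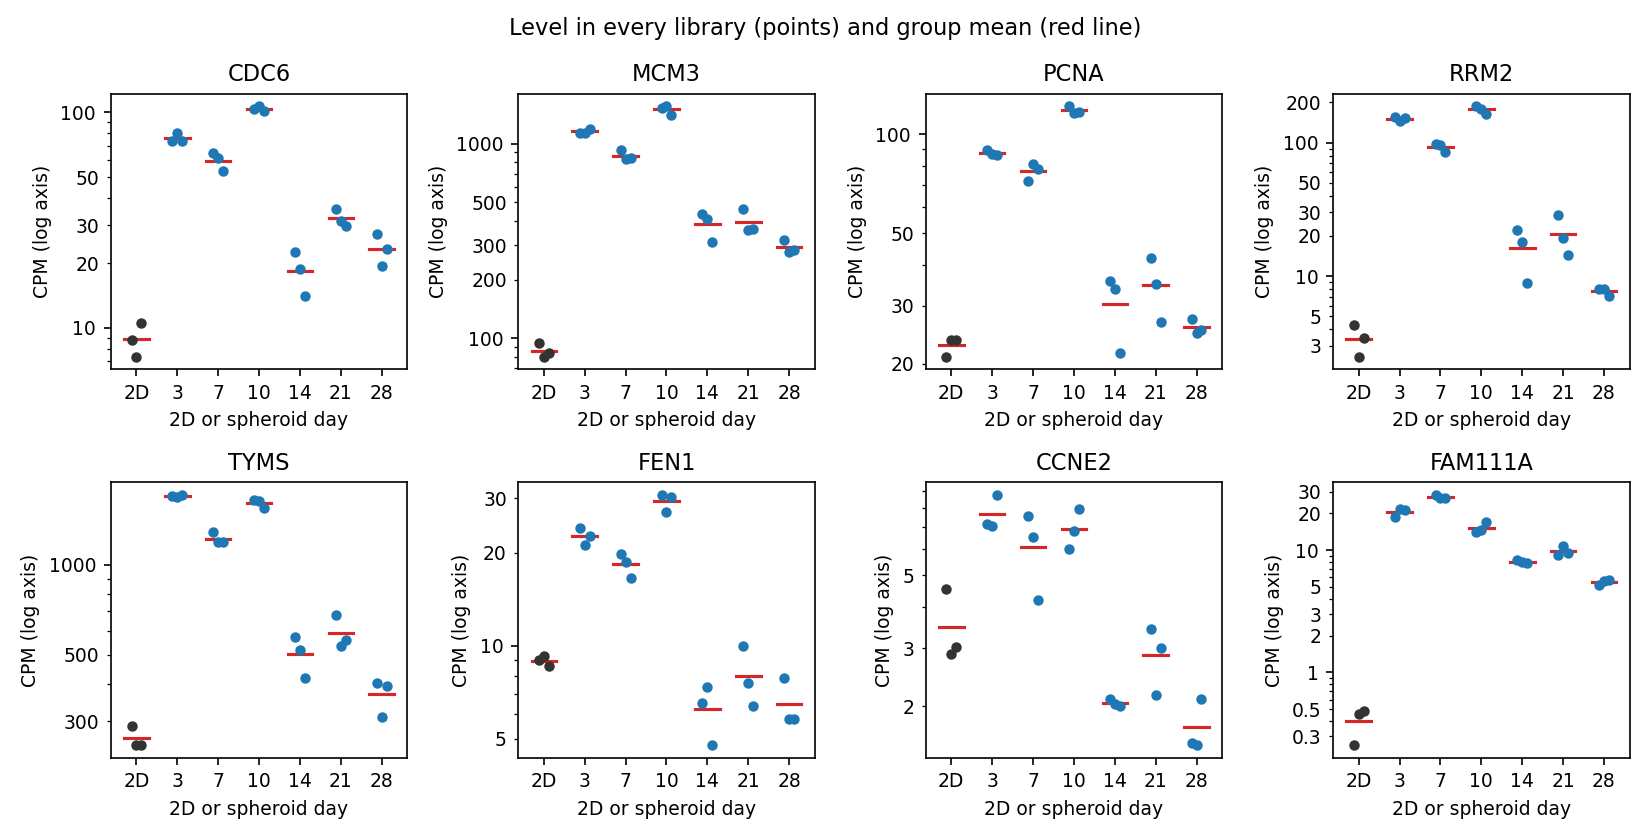
Level in CPM (vertical axis, log scale) of 8 members in every library (points) with the group mean (red line), for 2D and each spheroid day (horizontal axis). CDC6, MCM3, PCNA, RRM2 and TYMS share high Day 3, 7 and 10 libraries. The group means of FEN1 and CCNE2 are below their 2D mean at Days 14, 21 and 28, and FAM111A is highest at Day 7.

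The 8 helicase activation genes were all called higher at Day 3, with a median of 4.48, and DBF4 stood apart with a far smaller change than the others. CDC45 travels with the MCM ring as part of the helicase. It had 13.8, 13.5 and 14.3 CPM at Day 3, against 0.593, 0.636 and 0.586 in 2D. CDC45 levels were 8.37, 8.07 and 8.89 at Day 7 and 16.2, 16.5 and 14.5 at Day 10, then 3.17, 4.19 and 1.8 at Day 14, 3.67, 2.28 and 2.27 at Day 21 and 1.92, 1.78 and 1.71 at Day 28. The Day 7 dip of CDC45 was clear of both neighbours, with no Day 7 library above 9 CPM. CDC45 fell by 0.71 ± 0.18 at Day 7 against Day 3 (edgeR, adjusted p = 0.00408) and by 2.95 ± 0.21 at Day 28 against Day 3 (edgeR, adjusted p = 9.91e-14).

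MCM10, which helps the helicase open at the origin, had the largest Day 3 change of the class. MCM10 had 141, 142 and 149 CPM at Day 3, against 4.83, 3.51 and 2.67 in 2D. MCM10 levels were 122, 123 and 109 at Day 7 and 193, 200 and 180 at Day 10, then 35.6, 27.1 and 18.5 at Day 14, 36.8, 28.4 and 25.2 at Day 21 and 24.5, 18.4 and 18.9 at Day 28. All 18 spheroid libraries of MCM10 lay above 18 CPM and all 3 of 2D below 5. It was higher at Day 3 by 5.32 ± 0.25 (edgeR, adjusted p = 5.92e-12) and still higher at Day 28 by 2.50 ± 0.25 (edgeR, adjusted p = 1.88e-07).

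The 4 subunits of GINS, a ring-shaped helicase cofactor, had unlike changes. GINS3 had 24.3, 26.3 and 28.2 CPM at Day 3, against 5.42, 4.5 and 4.55 in 2D. GINS3 levels were 25.7, 20.3 and 19.8 at Day 7 and 28.7, 31.5 and 30.4 at Day 10, then 8.86, 6.85 and 7.14 at Day 14, 9.38, 7.59 and 6.16 at Day 21 and 6.3, 6.02 and 6.48 at Day 28. Its Day 28 libraries stayed just above 2D. GINS3 was higher at Day 3 by 2.45 ± 0.14 (edgeR, adjusted p = 6.34e-17), whereas GINS1, GINS2 and GINS4 were higher by 4.46, 5.28 and 5.29. At Day 28 GINS3 was higher by 0.38 ± 0.15 (edgeR, adjusted p = 0.0235), a call lost without 2D replicate 2 (edgeR, adjusted p = 0.0651) or 2D replicate 3 (edgeR, adjusted p = 0.0531). The ratio of GINS2 to GINS3 within a library averaged 2.69 ± 0.241 at Day 3 and 1.47 ± 0.141 at Day 28, against 0.38 ± 0.0954 in 2D (SD, n = 3 each).

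DBF4, the activating subunit of the kinase CDC7, had the smallest Day 3 change of the class. DBF4 had 3.63, 3.98 and 5.07 CPM at Day 3, against 1.61, 2.47 and 1.43 in 2D. DBF4 levels were 5.79, 5.6 and 4.04 at Day 7 and 4.55, 4.36 and 4.29 at Day 10, then 2.19, 2.62 and 2.6 at Day 14, 4.53, 3.6 and 3.96 at Day 21 and 4, 2.28 and 2.25 at Day 28. Its Day 28 libraries overlapped those of 2D. DBF4 was higher at Day 3 by 1.17 ± 0.24 (edgeR, adjusted p = 4.54e-05), while CDC7 was higher by 4.34 ± 0.30 (edgeR, adjusted p = 6.42e-15). The ratio of DBF4 to CDC7 averaged 0.496 ± 0.0604 at Day 3 and 2.07 ± 1.16 at Day 28, against 4.51 ± 0.749 in 2D (SD, n = 3 each). For DBF4 the call at Day 28 against 2D, 0.58 ± 0.25, was lost without 2D replicate 1 or 3 or without Day 28 replicate 1 (edgeR, adjusted p = 0.116, 0.142 and 0.358). The call at Day 28 against Day 3, -0.60 ± 0.23, was lost without Day 3 replicate 2 or 3 or without Day 28 replicate 2 or 3 (edgeR, adjusted p = 0.0507, 0.174, 0.178 and 0.164).

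Polymerase and primase genes rose in 7 of 7 cases at Day 3, with a median of 2.56, and 4 of the 7 were called higher at Day 28. Of all genes, 40.1% were called higher at Day 3 and 38.5% at Day 28. POLE2, a subunit of the leading-strand polymerase epsilon, had the largest Day 3 change. POLE2 had 16.2, 14.8 and 17.8 CPM at Day 3, against 1.95, 1.09 and 0.683 in 2D. POLE2 levels were 14.7, 14.7 and 14.6 at Day 7 and 21.9, 19.8 and 22.6 at Day 10, then 6.61, 4.75 and 4.27 at Day 14, 7.75, 5.85 and 4.63 at Day 21 and 4.7, 3.89 and 4.11 at Day 28. No spheroid library of POLE2 was as low as any of 2D. It was higher at Day 3 by 3.76 ± 0.22 (edgeR, adjusted p = 1.03e-15) and at Day 28 by 1.81 ± 0.24 (edgeR, adjusted p = 1.01e-07). Its catalytic partner POLE was higher at Day 3 by 2.21 ± 0.37 (edgeR, adjusted p = 4.02e-06), and its Day 28 value of 0.51 ± 0.40 (edgeR, adjusted p = 0.253) did not pass.

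PRIM2, the large subunit of primase, which lays down the RNA primers, had the smallest. PRIM2 had 44, 45.2 and 46 CPM at Day 3, against 17.2, 17.4 and 18.2 in 2D. PRIM2 levels were 33.4, 31.4 and 31.6 at Day 7 and 54.4, 53.1 and 45.8 at Day 10, then 18.7, 18.1 and 16.1 at Day 14, 23.3, 25.4 and 24.3 at Day 21 and 16.4, 20.2 and 19 at Day 28. Days 14 and 28 overlapped 2D, and Day 21 lay above it. PRIM2 was higher at Day 3 by 1.36 ± 0.092 (edgeR, adjusted p = 4.28e-15), and at Day 28 its difference from 2D was 0.08 ± 0.094 (edgeR, adjusted p = 0.443). PRIM1, the catalytic subunit, was higher at Day 28 by 2.54 ± 0.36 (edgeR, adjusted p = 7.44e-07). The ratio of PRIM1 to PRIM2 averaged 0.164 ± 0.021 at Day 3 and 0.196 ± 0.0235 at Day 28, against 0.0352 ± 0.00948 in 2D (SD, n = 3 each). POLA2, of the primase-polymerase alpha complex, was higher at Day 3 by 3.47 ± 0.13 and POLD1, the catalytic subunit of polymerase delta, by 2.19 ± 0.18. POLA1 had at most 1.52 CPM in any library, and its Day 28 difference from 2D, 1.02 ± 0.76 (edgeR, adjusted p = 0.229), did not pass.

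The clamp and its loader rose in 5 of 5 cases at Day 3, with the smallest median of these classes, 2.08. PCNA, the sliding clamp and a common stain for cycling cells, had 89.5, 87.3 and 86.7 CPM at Day 3, against 21, 23.6 and 23.6 in 2D. PCNA levels were 72.1, 81.5 and 78.4 at Day 7 and 122, 116 and 117 at Day 10, then 35.8, 33.9 and 21.6 at Day 14, 42.1, 35 and 26.8 at Day 21 and 27.3, 24.8 and 25.3 at Day 28. Day 14 replicate 3 was within the 2D range, and all Day 28 libraries were within 4 CPM of its top. PCNA was higher at Day 3 by 1.95 ± 0.15 (edgeR, adjusted p = 2.55e-10), and its Day 28 difference, 0.17 ± 0.15 (edgeR, adjusted p = 0.316), did not pass. With library size scaling the Day 28 difference was 0.39 (edgeR, adjusted p = 0.0149).

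RFC2 to RFC5 are the small subunits of the clamp loader. RFC2 had 7.9, 7.06 and 8.08 CPM at Day 3, against 2.5, 1.5 and 1.79 in 2D. RFC2 levels were 4.98, 5.98 and 5.19 at Day 7 and 9.6, 5.72 and 5.87 at Day 10, then 3.05, 3.39 and 4.07 at Day 14, 2.04, 3.36 and 3.35 at Day 21 and 3.09, 3.25 and 2.95 at Day 28. The Day 10 libraries of RFC2 were split, with 1 far above the others. RFC5 changed most of the class and had 12.8, 13.8 and 12.5 CPM at Day 3, against 1.23, 1.53 and 1.37 in 2D. RFC5 levels were 10.2, 10.3 and 9.33 at Day 7 and 16.4, 17.1 and 14.9 at Day 10, then 4.34, 3.18 and 2.37 at Day 14, 6.69, 4.98 and 4.57 at Day 21 and 4.06, 2.6 and 2.37 at Day 28. All spheroid libraries of RFC5 were above 2D. RFC5 was higher at Day 3 by 3.23 ± 0.21 (edgeR, adjusted p = 9.28e-16) and RFC2 by 2.02 ± 0.23 (edgeR, adjusted p = 1.01e-09). At Day 28 RFC2 was higher by 0.71 ± 0.24 (edgeR, adjusted p = 0.00873), a call lost without 2D replicate 2 (0.57, edgeR, adjusted p = 0.0569). RFC3 was higher at Day 3 by 2.94 ± 0.19 and RFC4 by 2.08 ± 0.20.

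In strand maturation 4 of 4 members were called higher at Day 3, with log2 fold changes from 1.30 (RPA2) to 5.45 (EXO1). EXO1, a nuclease of mismatch repair and end resection, had 57.6, 56.9 and 54.2 CPM at Day 3, against 1.78, 1.02 and 1.2 in 2D. EXO1 levels were 40.1, 39.3 and 40.3 at Day 7 and 63.9, 60.7 and 59.1 at Day 10, then 10.7, 8.84 and 5.74 at Day 14, 11, 8.61 and 9.2 at Day 21 and 5.66, 5.94 and 4.35 at Day 28. All spheroid libraries were above 4 CPM and those of 2D below 2. EXO1 was 43.6-fold higher at Day 3, a log2 fold change of 5.45 ± 0.19 (edgeR, adjusted p = 2.32e-20). RPA2, a subunit of the protein that coats single-stranded DNA, had 17.1, 19.7 and 20.8 CPM at Day 3, against 8.39, 6.77 and 8.26 in 2D. RPA2 levels were 14.8, 16.8 and 13.9 at Day 7 and 21.8, 20.7 and 18.3 at Day 10, then 7.78, 9.16 and 7.14 at Day 14, 10.3, 8.04 and 8.33 at Day 21 and 6.24, 8.68 and 8.62 at Day 28. Its Day 14, 21 and 28 libraries overlapped 2D. RPA2 was higher at Day 3 by 1.30 ± 0.14 (edgeR, adjusted p = 3.38e-10), and its Day 28 difference was 0.03 ± 0.15 (edgeR, adjusted p = 0.873).

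FEN1, the flap nuclease that trims Okazaki fragments, was above 2D early and below it late. FEN1 had 24, 21.2 and 22.7 CPM at Day 3, against 8.98, 9.24 and 8.59 in 2D. FEN1 levels were 19.8, 18.7 and 16.6 at Day 7 and 30.8, 27.1 and 30.2 at Day 10, then 6.53, 7.38 and 4.77 at Day 14, 10, 7.59 and 6.39 at Day 21 and 7.84, 5.79 and 5.78 at Day 28. All Day 14 and Day 28 libraries were below the lowest of 2D, and Day 21 overlapped it. FEN1 was higher at Day 3 by 1.34 ± 0.14 (edgeR, adjusted p = 3.83e-10) and lower at Day 28 (-0.48 ± 0.16, edgeR, adjusted p = 0.00622). The Day 28 call was lost with library size scaling (-0.27, edgeR, adjusted p = 0.107) and without Day 28 replicate 2 (-0.38, edgeR, adjusted p = 0.0565). The Day 14 call of -0.52 ± 0.15 (edgeR, adjusted p = 0.0028) was lost without Day 14 replicate 3 (-0.34, edgeR, adjusted p = 0.0516). FEN1 overlaps TMEM258, which lies on the opposite strand, and FADS2, and it has a processed copy, FEN1P1. LIG1, the ligase that seals the fragments, was higher at Day 3 by 3.54 ± 0.34 and at Day 28 by 1.39 ± 0.39.

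Nucleotide supply enzymes rose in 5 of 5 cases at Day 3, with a median of 4.73, and had the lowest class median at Day 28 against Day 3. RRM1 and RRM2 encode the large and small subunits of ribonucleotide reductase, and the small subunit is the one that cycles. RRM2 had 155, 146 and 152 CPM at Day 3, against 4.28, 2.49 and 3.42 in 2D. RRM2 levels were 98.5, 95.5 and 85 at Day 7 and 188, 179 and 165 at Day 10, then 22, 18.1 and 8.84 at Day 14, 28.9, 19.3 and 14.3 at Day 21 and 8.06, 8.01 and 7.06 at Day 28. Day 14 replicate 3 was close to the Day 28 libraries, and all spheroid libraries were above 2D. RRM2 was 45.7-fold higher at Day 3 (5.52 ± 0.33, edgeR, adjusted p = 2.18e-10) and fell 19.6-fold by Day 28 against Day 3 (-4.29 ± 0.30, edgeR, adjusted p = 4.62e-09). RRM1 had 46.4, 44.5 and 49.6 CPM at Day 3, against 9.07, 9.14 and 8.72 in 2D. RRM1 levels were 37.2, 36.6 and 35.2 at Day 7 and 53, 56.8 and 51.9 at Day 10, then 13.1, 11.8 and 8.94 at Day 14, 16.7, 13.1 and 12.2 at Day 21 and 9.18, 10.1 and 8.93 at Day 28. Its Day 28 libraries overlapped 2D. RRM1 was higher at Day 3 by 2.38 ± 0.12 (edgeR, adjusted p = 8.06e-19), and its Day 28 difference was 0.07 ± 0.12 (edgeR, adjusted p = 0.626). The ratio of RRM2 to RRM1 averaged 3.23 ± 0.156 at Day 3, 1.4 ± 0.366 at Day 14 and 0.822 ± 0.0486 at Day 28, against 0.379 ± 0.1 in 2D (SD, n = 3 each).

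TYMS makes thymidylate, TK1 salvages thymidine, and DUT removes dUTP so that uracil stays out of DNA. TYMS had 1700, 1690 and 1720 CPM at Day 3, against 290, 249 and 249 in 2D. TYMS levels were 1290, 1190 and 1190 at Day 7 and 1650, 1640 and 1550 at Day 10, then 572, 521 and 419 at Day 14, 682, 534 and 560 at Day 21 and 403, 309 and 393 at Day 28. Each spheroid library of TYMS was above all of 2D, by a small margin at Day 28. TK1 had 27.5, 28.2 and 26.2 CPM at Day 3, against 1.06, 0.993 and 1.04 in 2D. TK1 levels were 23, 20.2 and 18.3 at Day 7 and 32.3, 33 and 27.8 at Day 10, then 6.14, 5.21 and 2.37 at Day 14, 7.72, 4.92 and 3.45 at Day 21 and 1.65, 2.4 and 1.51 at Day 28. The lowest of Day 14, replicate 3, was within the Day 28 range. DUT had 72.4, 75.4 and 73.7 CPM at Day 3, against 2.33, 2.52 and 1.56 in 2D. DUT levels were 60.8, 54.9 and 52.6 at Day 7 and 92.8, 102 and 88.4 at Day 10, then 16.9, 13.2 and 6.97 at Day 14, 22.8, 11 and 10.8 at Day 21 and 6.56, 6.67 and 5.74 at Day 28. DUT also had 1 high library at Day 21, replicate 1. At Day 28 against Day 3 all fell, TYMS with a log2 fold change of -2.21 ± 0.11, TK1 with -3.84 ± 0.29 and DUT with -3.54 ± 0.31 (edgeR, adjusted p = 1.95e-13, 1.51e-09 and 6.94e-08). TYMS was higher at Day 28 than in 2D by 0.49 ± 0.11 (edgeR, adjusted p = 0.000384). TK1, at 0.89 ± 0.39 (edgeR, adjusted p = 0.0505), did not pass although its 3 libraries were above those of 2D, and it passed with DESeq2 (0.85, adjusted p = 0.0199). TYMS overlaps ENOSF1 on the opposite strand, and TYMS, DUT and RRM2 have named pseudogenes. Of the 52 members, 9 have a named pseudogene and 11 overlap a coding gene on the opposite strand. Detector oligo sequences were not at hand, so whether any of these counts hold reads of others was not tested.

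Chromatin genes rose in 3 of 3 cases at Day 3. UHRF1, which guides the maintenance methyltransferase to new DNA, had 26, 25.5 and 27.4 CPM at Day 3, against 1.14, 0.865 and 1.07 in 2D. UHRF1 levels were 23.2, 19.4 and 19.2 at Day 7 and 32.8, 30.6 and 38.3 at Day 10, then 8.95, 7.58 and 5.44 at Day 14, 9.04, 5.1 and 6.36 at Day 21 and 3.41, 5.58 and 3.03 at Day 28. All spheroid libraries of UHRF1 were above 3 CPM and those of 2D below 1.2. CHAF1B, a subunit of the histone chaperone CAF-1, had 32.9, 34.2 and 32.4 CPM at Day 3, against 10.1, 7.3 and 9.47 in 2D. CHAF1B levels were 28.7, 24.7 and 27.7 at Day 7 and 39.3, 33.2 and 36.4 at Day 10, then 15.6, 15.1 and 9.64 at Day 14, 16.5, 16.1 and 13.3 at Day 21 and 11.5, 12.1 and 12.1 at Day 28. Its Day 14 replicate 3 fell within the 2D range. UHRF1 was higher at Day 28 by 2.02 ± 0.28 (edgeR, adjusted p = 6.05e-07). CHAF1B was higher at Day 28 by 0.43 ± 0.14 (edgeR, adjusted p = 0.00811), a call lost without 2D replicate 2 (0.31, edgeR, adjusted p = 0.0657). CHAF1A, the large CAF-1 subunit, was higher at Day 3 by 2.60 ± 0.17.

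Fork protection and check genes rose in 5 of 5 cases at Day 3, with a median of 4.71. FAM111A and FAM111B encode related proteases, FAM111A being the one that clears protein obstacles from forks, and the genes lie 15337 bases apart on chromosome 11. FAM111A had 18.6, 21.6 and 21.3 CPM at Day 3, against 0.254, 0.458 and 0.488 in 2D. FAM111A levels were 28.5, 26.8 and 26.7 at Day 7 and 14.1, 14.5 and 17.1 at Day 10, then 8.38, 7.93 and 7.81 at Day 14, 9.15, 10.9 and 9.52 at Day 21 and 5.18, 5.58 and 5.74 at Day 28. The Day 7 libraries were the highest of all, and Day 28 was over 10 times the top of 2D. FAM111B had 93.8, 98.8 and 96.7 CPM at Day 3, against 3.64, 1.71 and 2.11 in 2D. FAM111B levels were 82.1, 75.3 and 68.9 at Day 7 and 105, 113 and 102 at Day 10, then 15.8, 13 and 8.24 at Day 14, 21.8, 15.6 and 14.1 at Day 21 and 5.71, 5.09 and 3.76 at Day 28. The lowest Day 28 library of FAM111B almost touched the highest of 2D. From Day 7 to Day 10 FAM111A was the 1 member called lower (-0.84 ± 0.11, edgeR, adjusted p = 1.29e-06), and from Day 3 to Day 7 the 1 called higher (0.41 ± 0.11, edgeR, adjusted p = 0.00828), the second call being lost without Day 3 replicate 1 (0.35, edgeR, adjusted p = 0.0652). FAM111A was 13.2-fold higher at Day 28 than in 2D (3.72 ± 0.19, edgeR, adjusted p = 6.6e-18) and FAM111B 2.02-fold (1.02 ± 0.31, edgeR, adjusted p = 0.00785). At Day 28 against Day 3 FAM111B had the largest fall of the 51 (-4.32 ± 0.25, edgeR, adjusted p = 1.89e-10). The ratio of FAM111B to FAM111A averaged 4.71 ± 0.278 at Day 3 and 2.76 ± 0.16 at Day 7, then 7.06 ± 0.973 at Day 10 and 0.89 ± 0.225 at Day 28, against 7.46 ± 5.96 in 2D, where FAM111A had 6, 18 and 15 counts (SD, n = 3 each).

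CLSPN and TIMELESS pass the fork stress signal on to the checkpoint kinase CHK1, and DTL directs CDT1 to destruction on chromatin. TIMELESS, with the smallest rise of the class, had 3.8, 3.6 and 4.43 CPM at Day 3, against 0.763, 0.585 and 0.488 in 2D. TIMELESS levels were 3.72, 3.8 and 2.5 at Day 7 and 3.6, 2.69 and 2.97 at Day 10, then 1.17, 0.699 and 1.6 at Day 14, 1.78, 0.9 and 1.66 at Day 21 and 1.01, 1.81 and 2.06 at Day 28. One Day 14 library of TIMELESS was within the 2D range. TIMELESS was higher at Day 3 by 2.699 ± 0.33 (edgeR, adjusted p = 5.63e-09), CLSPN by 4.71 ± 0.22 and DTL by 3.10 ± 0.19. At Day 28 DTL was higher by 0.50 ± 0.20 (edgeR, adjusted p = 0.0307), a call lost without 2D replicate 3 (0.42, edgeR, adjusted p = 0.0951) or without Day 28 replicate 2 (0.36, edgeR, adjusted p = 0.154).

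Of the S-phase regulators, E2F1 and E2F2, activators of the genes above, were near the limit of detection. E2F1 had 10, 3 and 7 counts in the Day 3 libraries, against 0, 0 and 0 in 2D. E2F1 counts were 2, 0 and 2 at Day 7 and 0, 9 and 4 at Day 10, then 0, 1 and 2 at Day 14, 0, 1 and 3 at Day 21 and 1, 1 and 1 at Day 28. It was not tested. Set against a floor of 3 counts over the 2D group (0.032 CPM), the observed pooled level of E2F1 was 6.41 times that floor at Day 3 and 4.41 times at Day 10. E2F2 had 18, 12 and 20 counts at Day 3, against 0, 0 and 0 in 2D. E2F2 counts were 17, 5 and 7 at Day 7 and 16, 14 and 2 at Day 10, then 0, 0 and 2 at Day 14, 0, 0 and 0 at Day 21 and 0, 8 and 0 at Day 28. Every E2F2 count of Day 28 came from replicate 2. The observed pooled level of E2F2 was 16.1 times the same floor at Day 3 and 10.9 times at Day 10. E2F2 was called higher than 2D on both days (edgeR, adjusted p = 0.00037 and 0.0013). Its Day 28 call against 2D (edgeR, adjusted p = 0.0493) was lost without Day 28 replicate 2, which leaves no counts in either group, and without any 1 of the 2D replicates (edgeR, adjusted p = 0.0821, 0.107 and 0.0914). The call was also just lost without Day 3 replicate 1, 2 or 3, Day 7 replicate 3, Day 10 replicate 2 or Day 14 replicate 2 (edgeR, adjusted p from 0.0508 to 0.0533). The fall of E2F2 from Day 10 to Day 14 was called (edgeR, adjusted p = 0.0135) but was lost without Day 10 replicate 1 (edgeR, adjusted p = 0.0698) or without Day 14 replicate 1 or 2 (edgeR, adjusted p = 0.0604 and 0.0548). Its fall at Day 28 against Day 3 was lost without Day 3 replicate 1, 2 or 3 (edgeR, adjusted p = 0.0594, 0.0538 and 0.113) or without Day 28 replicate 1 or 3 (edgeR, adjusted p = 0.118 and 0.149). The floor covers counting error in 2D only, and the counting error of the spheroid counts was not included.

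E2F8, a repressor of the E2F family that is itself switched on in S phase, had a mean of 84.1 ± 2.71 CPM at Day 3, 91.4 ± 3.39 at Day 10 and 5.95 ± 0.804 at Day 28, against 1.68 ± 0.294 in 2D (SD, n = 3 each). It was 50.9-fold higher at Day 3 (5.67 ± 0.20, edgeR, adjusted p = 2.76e-17) and fell 14.2-fold at Day 28 against Day 3. CCNE2 encodes cyclin E2, which drives CDK2 at the entry to S phase. CCNE2 had 7.16, 7.06 and 8.79 CPM at Day 3, against 4.53, 2.88 and 3.03 in 2D. CCNE2 levels were 7.54, 6.54 and 4.21 at Day 7 and 6, 6.83 and 7.94 at Day 10, then 2.1, 2.03 and 2 at Day 14, 3.44, 2.16 and 3 at Day 21 and 1.55, 1.52 and 2.1 at Day 28. All Day 14 and Day 28 libraries were below the lowest of 2D. CCNE2 was higher at Day 3 by 1.16 ± 0.22 (edgeR, adjusted p = 1.43e-05), lower at Day 14 (-0.75 ± 0.23, edgeR, adjusted p = 0.00497) and lower at Day 28 (-0.996 ± 0.245, edgeR, adjusted p = 0.000531). CCNE2 overlaps INTS8 and NDUFAF6 on the opposite strand.

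**Figure D5:**
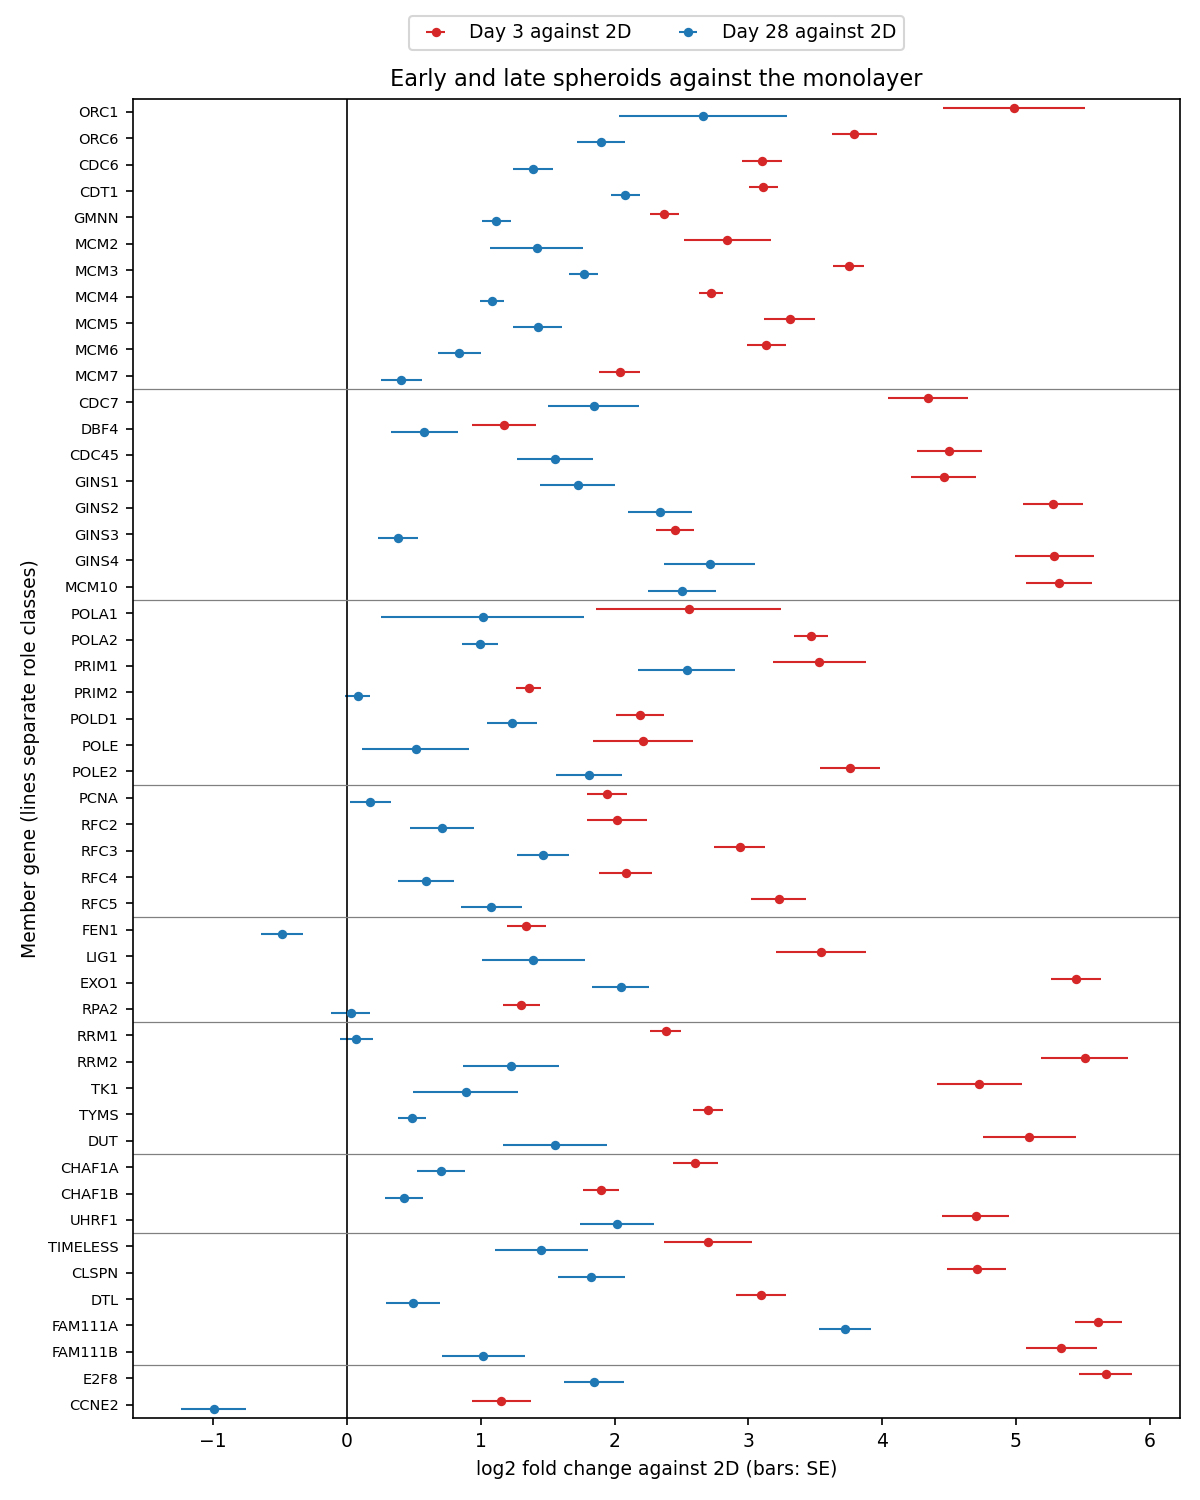
Log2 fold change (horizontal axis, bars are SE) of Day 3 (red) and of Day 28 (blue) against 2D for 50 members in rows by role class; E2F2 is left out because 2D has no counts. Red points lie to the right of blue in every row, PRIM2, RPA2, RRM1 and PCNA come back close to 0 at Day 28, and FEN1 and CCNE2 go below it.

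Other genes of the same pathways had smaller medians. Members and these lists were both chosen with earlier results of these data known. The gap between them may therefore come from the choice and is only described. Of 29 further replication genes, 21 were called higher and 3 lower at Day 3 against 2D, with a median of 1.45 (40.1% of all genes were higher and 37.8% lower). The largest changes were in ASF1B, a histone chaperone (5.43 ± 0.25, edgeR, adjusted p = 8.21e-12), TICRR, which readies origins for firing (5.37 ± 0.20, edgeR, adjusted p = 4.39e-22), DSCC1, of a PCNA loader (4.55 ± 0.12, edgeR, adjusted p = 8.86e-24), and CHTF18, of the same loader (3.95 ± 1.34, edgeR, adjusted p = 0.00848). CHTF18 had only 0.404 ± 0.249 CPM at Day 3, against 0.025 ± 0.0222 in 2D (SD, n = 3 each). The 3 lower genes, named after their values were seen, were POLE4, a polymerase epsilon subunit (-0.34), ORC2 (-0.29) and RFC1 (-0.22). From Day 10 to Day 14, 24 of these 29 fell and 0 rose (24.3% and 24% of all genes). At Day 28 against Day 3, 21 fell and 2 rose (30.2% and 29.5% of all genes), with a median of -0.84, where the members had -1.98. The genes that rose were the origin recognition subunits ORC5 (1.68 ± 0.26, edgeR, adjusted p = 1.63e-06) and ORC2 (0.19 ± 0.077, edgeR, adjusted p = 0.0325).

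Of 15 further genes of nucleotide supply, 9 were called higher and 2 lower at Day 3, where 40.1% of all genes were higher and 37.8% lower. DTYMK, the thymidylate kinase, was higher by 3.13 ± 0.17 (edgeR, adjusted p = 1.67e-14). SAMHD1, which breaks deoxynucleotides down, was higher by 2.40 ± 0.088 (edgeR, adjusted p = 3.22e-22). RRM2B, the p53-induced small subunit of ribonucleotide reductase, was lower (-1.52 ± 0.12, edgeR, adjusted p = 1.11e-11), opposite in direction to RRM2, and GMPS, which makes GMP, was the other lower gene (-0.90 ± 0.10, edgeR, adjusted p = 8.31e-10). At Day 28 against Day 3, 8 of the 15 fell and 2 rose (30.2% and 29.5% of all genes), with a median of -0.47. The pair that rose were again GMPS (0.51 ± 0.10, edgeR, adjusted p = 6.37e-05) and RRM2B (0.28 ± 0.12, edgeR, adjusted p = 0.0418).

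Of 20 tested genes of the RB and E2F families and the CDK inhibitors, 10 were called higher and 7 lower at Day 3, shares near the 40.1% higher and 37.8% lower of all genes. CDKN2C, the inhibitor p18, was higher by 5.84 ± 0.44 (edgeR, adjusted p = 1.13e-13), MYBL2, the B-MYB factor, by 5.35 ± 0.32 (edgeR, adjusted p = 9.97e-12), and E2F7, the partner of E2F8, by 3.76 ± 0.34 (edgeR, adjusted p = 4.58e-12). RBL1, the pocket protein p107, was higher by 2.75 ± 0.083 (edgeR, adjusted p = 1.69e-24). At Day 28 against Day 3, 11 of the 20 fell and 4 rose (30.2% and 29.5% of all genes). The largest fall was in MYBL2 (-4.01 ± 0.28, edgeR, adjusted p = 4.6e-10), and the 4 that rose, named after their values were seen, were LIN37 (1.19), E2F6 (0.87), E2F5 (0.62) and CDKN1B (0.36). CDKN1A, the inhibitor p21, was lower than 2D both at Day 3 (-1.15 ± 0.34, edgeR, adjusted p = 0.00253) and at Day 28 (-2.77 ± 0.39, edgeR, adjusted p = 1.45e-07). The mitosis list, of which 22 genes were tested, was called higher in 22 of 22 cases at Day 3 (median 4.62) and lower in 22 of 22 at Day 28 against Day 3 (median -2.11).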

How the data were processed

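Expression was measured with TempO-Seq in 21 libraries, 3 from each of 6 spheroid days and 3 from 2D. Per the submitters' processing notes, bcl2fastq 2.20.422, fastp 0.23.2, STAR 2.7.10b, DESeq2 1.38.0 and genome build GRCh38.p13 were used, with no role given, and strand use and how detector oligos were combined per gene are not given in the sources used here. The deposited values are whole-number counts per gene symbol, which the authors did not normalise. From these counts, edgeR 4.0.16 (R 4.3.3) fitted 1 robust quasi-likelihood model over all 7 groups with TMM scaling after a filter on low counts (minimum count 10). The filter removed 7338 of 19683 genes holding 0.0108% of counts. Each of 12 contrasts and the F test over spheroid days was adjusted by the Benjamini-Hochberg method over 12345 genes at 0.05. The biological coefficient of variation was 9.62%, with 14 residual degrees of freedom. CPM used the TMM library sizes. DESeq2 1.42.0 and limma 3.58.1 (voom) were alternatives, voom being chosen after seeing the data. Others were RLE and library size scaling, no filter, only the groups compared, a replicate block, a 2-fold minimum and leaving out each library. The fits were tested on simulated data. Gene positions came from GENCODE 29 and promoters from RefSeq.

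The members and the other gene lists were chosen with earlier results of these data known. The rule for named genes gave the value in every library for 22 chosen members and for the members with the largest and smallest Day 3 change of each role, and at most 4 genes with the largest change per comparison of every other list. Beyond it, genes in counts of 5 or fewer were named, and CDKN1A was also given at Day 3. Intervals for counting error were not used, and floors for a count of 0 used 3 counts.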

Additional observations from a re-analysis of the deposited data

Results flagged for a closer look

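FEN1 and CCNE2 were looked at again because their difference from 2D had opposite signs at the ends of the time course. FEN1 was 1.34 ± 0.14 at Day 3 and -0.48 ± 0.16 at Day 28 on the log2 scale, a difference of -1.82 between the days, which the direct contrast of Day 28 against Day 3 called lower (edgeR, adjusted p = 2.81e-12). CCNE2 was 1.16 ± 0.22 at Day 3 and -0.996 ± 0.245 at Day 28, a difference of -2.15 (edgeR, adjusted p = 1.66e-09). Each sign rests on 3 libraries per group, and the Day 28 call of FEN1 was lost with library size scaling and without Day 28 replicate 2, as given above.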

How the results depend on the processing

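Of 725 values of the 25 counts of members called, recomputed under 29 settings, 703 stayed within 1.5 times the count reported, and no call of a single member reversed its sign in any of them. With library size scaling 1 member was called lower at Day 28 against 2D. With no filter 25 were lower at Day 7 against Day 3, and 14 were higher and 1 lower at Day 21 against Day 14. With only the groups compared, 2 were higher and 34 lower at Day 7 against Day 3, and with voom 32 were lower. With a 2-fold minimum 0 members were lower at Day 14 or Day 28 against 2D, 0 were higher or lower at Day 7 against Day 3, 1 was higher and 0 lower at Day 10 against Day 7, 1 was higher at Day 21 against Day 14, and 6 were lower at Day 28 against Day 21. Leaving out each library in turn gave 0 to 1 higher (0 without Day 3 replicate 1) and 9 to 17 lower (9 without Day 3 replicate 3) at Day 7 against Day 3. It gave 3 to 11 higher and 0 to 2 lower at Day 21 against Day 14, with 3 higher and 2 lower without Day 21 replicate 1. It gave 1 to 2 lower at Day 14 against 2D (1 without Day 14 replicate 3) and 1 to 2 lower at Day 28 against 2D (1 without Day 28 replicate 2). The cause of these shifts was not tested.

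Of 476 calls of single members, leaving out 1 library lost 2 to 12, library size scaling 4, voom 9 and RLE scaling 0. Library size scaling also moved the share of higher calls over all genes to 39.4% at Day 7 against Day 3 (54.8% with TMM) and to 55.6% at Day 28 against Day 21 (41.8% with TMM). Replicate numbers recur in every group, but in 63 pairs of same-numbered libraries the correlation of deviations from the group mean ran from -0.06 to 0.099. No deviation shared by replicate number was seen, and the samples were treated as unpaired. Whether same-numbered libraries were grown or handled together is not stated in the labels, and such correlations cannot tell. With a replicate block 2 calls were lost, POLE at Day 14 against 2D and E2F2 at Day 28 against 2D, and 15 gained, and every count of members stayed within 1.5 times. Low counts limited the results of E2F1, E2F2, ORC1 and POLA1, whose 2D counts were 10 or fewer per library.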
